A study of Mus musculus with 56 samples.

Results

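The proteasome is the barrel-shaped protease that degrades ubiquitin-tagged proteins. The genes described here are those of the expression table whose symbol begins with Psma, Psmb, Psmc, Psmd or Psme and a digit. The 3 inducible catalytic subunits Psmb8, Psmb9 and Psmb10 were left out of the set and are given beside it, and pseudogenes were not counted. The name rule took 46 symbols and left 43 genes of the 24424 in the table. Of these, 41 encode subunits, activators or assembly chaperones of the proteasome, and the other two, Psmc3ip and Psme3ip1, share the name only, as partners of a subunit or an activator. A mean of at least 4 on the log2 scale over all libraries was needed for testing, which 42 of the 43 and 12133 genes in all met. Psmb11, the catalytic subunit of the thymus, lay at or below -0.23 in every library and was not tested.

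RNA-seq was done on 2 kinds of sorted bone marrow progenitor from C57BL/6 mice, in 4 groups. Multipotent progenitors (MPP) were lin- Sca+ cKit+ CD48+ CD150- cells, and granulocyte-macrophage progenitors (GMP) were lin- Sca- cKit+ CD34+ CD16/32+ cells. WT mice gave 4 MPP libraries (replicates 1, 3, 4 and 5) and 5 GMP libraries (replicates 1 to 5). Mice of the genotype Tet2-/-Flt3ITD, called T2F3 here, gave 3 MPP and 3 GMP libraries (replicates 1 to 3 of each). These mutants lack Tet2, an enzyme that oxidizes 5-methylcytosine, and carry the ITD allele (internal tandem duplication) of Flt3, a cytokine receptor of early progenitors. Age and any treatment of the mice are not given in the sources used here, and nothing in the labels ties a library to its own animal, so the spread behind each p-value is that of these libraries and may in part be technical.

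Values are regularized log2 levels, in which the levels of weakly read genes are shrunken, so that their differences are understated. They hold no read counts, and the depth of the libraries is unknown. Among the GMP libraries, WT GMP 1 and T2F3 GMP 2 stood apart from their groups in core, ribosomal protein and respiratory genes, and GMP results are given with and without them. They were picked by these values, so leaving them out narrows the spread of these same genes. Of 6 genes used as GMP markers, 5 (Mpo, Elane, Prtn3, Ctsg and Cebpe) had higher means in both GMP groups than in both MPP groups, and the sixth, Csf3r, did not. Of 6 MPP markers, 5 (Meis1, Hlf, Mecom, Flt3 and Ly6a) had higher means in both MPP groups than in both GMP groups, and Cd48 did not. Summed marker levels of other blood cells differed between the genotypes. Over 7 erythroid genes the log2 of the summed level ran from 9.83 to 10.33 in WT MPP and from 7.27 to 7.45 in T2F3 MPP, and over 4 B cell genes from 7.33 to 8.18 and from 5.43 to 5.59. Over 4 dendritic cell genes it ran from 8.45 to 9.22 in WT MPP and from 10.88 to 11.55 in T2F3 MPP, and over 4 macrophage genes from 7.31 to 7.47 and from 8.1 to 9.09. The macrophage sum was raised by Adgre1 (means of 5.95 and 7.35) and Mrc1 (6.01 and 7.55), while C1qa (4.08 and 3.66) and C1qb (4.58 and 4.0) had lower means in T2F3 MPP. Over 4 mast cell and basophil genes it ran from 9.35 to 9.83 and from 7.91 to 8.18, and over 4 megakaryocyte genes from 9.82 to 10.11 and from 8.71 to 9.40. Itga2b lowered the megakaryocyte sum (means of 9.76 and 8.12), Pf4 (4.46 and 4.29) and Gp1bb (2.58 and 2.42) differed little, and Vwf was higher in T2F3 MPP (6.82 and 7.63). Of the dendritic cell genes, Siglech was lower in T2F3 MPP (5.48 and 4.97), while Xcr1, Clec9a and Itgax were higher. The sums of the GMP groups differed in the same directions in these 6 lists, and those of 4 T cell genes overlapped between the genotypes in both populations. The globin genes Hba-a1 and Hbb-b1 were at or below 0 in all libraries. The part of these cells in the results below was not tested, and fewer cells of a type and less RNA per cell cannot be told apart in sorted bulk samples.

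The 20S core of the proteasome is a stack of rings made of alpha subunits, which gate the channel, and beta subunits, of which Psmb5, Psmb6 and Psmb7 carry the constitutive proteolytic sites. The 19S regulatory particle caps the core: its base holds the ATPases Psmc1 to Psmc6, which unfold and thread the substrate, and its lid holds subunits around the deubiquitinase Psmd14. The activators PA28 (Psme1 and Psme2 as 1 ring, Psme3 as another) and PA200 (Psme4) can bind the core in place of the 19S cap. Interferon raises Psme1, Psme2 and the inducible catalytic subunits Psmb8, Psmb9 and Psmb10, which replace Psmb5, Psmb6 and Psmb7 in the immunoproteasome of blood and immune cells. Levels of core and 19S genes are known to be raised together by the transcription factor Nfe2l1 through antioxidant response elements when proteasome activity is low.

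The promoters show how far the subunit genes share letters near their starts. RefSeq gave a promoter entry (assembly GRCm38.p6, which is not the submitters' mm9 build) for 36 of the 43 genes, and 250 bases before the start were searched on both strands. No entry was used for Psma8, Psmb1, Psmb2, Psmb7, Psmc3, Psmd3 and Psmd7. The 34 subunit or associated genes have 37 promoters in that table. The core of the antioxidant response element, TGACNNNGC, was in 13.5% of the 37, in 2 of the 13 promoters of the 20S core and 2 of the 15 of the 19S particle, against 10.2% of all 32851 promoters in the table. The binding letters of ETS factors, CCGGAAG, were in 9 of the 15 19S promoters (60.0%) and in 1 of the 13 core promoters (7.69%), against 6.91% of all promoters. The NF-Y box CCAAT was in 7 of the 13 core promoters (53.8%) and 4 of the 15 19S promoters (26.7%), against 33.8% of all. The 13 included the promoter of Psmb11, which was not tested, and it held CCAAT. Psma6 had 2 of the 13, and the core match of the ETS letters was in 1 of these. The centre of the site of nuclear respiratory factor 1, GCGCNTGCG, which is another protein than Nfe2l1, was in 3 core and 3 19S promoters and in 16.2% of the 37, against 5.19% of all. The MYC letters CACGTG were in 8.11% of the 37 and 6.02% of all. None of these motifs holds another whole, a match is a run of letters and not a site, and genes with 2 starts were counted by promoter.

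The promoters of 7 genes are printed to show these differences: 2 catalytic core subunits and 2 19S subunits with an antioxidant response core, a core alpha subunit with CCAAT, and the 2 genes that were lower in T2F3 in the tests below. Each is the 250 bases before the start, 5′ to 3′ on the gene's strand, with the matches of these motifs in capitals.
Psmb5 (chr14:54617996-54618245, minus strand): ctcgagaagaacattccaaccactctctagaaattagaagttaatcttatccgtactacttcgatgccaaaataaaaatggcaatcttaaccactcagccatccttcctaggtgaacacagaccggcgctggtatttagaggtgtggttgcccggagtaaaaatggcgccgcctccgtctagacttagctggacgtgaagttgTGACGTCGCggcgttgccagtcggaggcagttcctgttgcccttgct
Psmb6 (chr11:70525107-70525356, plus strand): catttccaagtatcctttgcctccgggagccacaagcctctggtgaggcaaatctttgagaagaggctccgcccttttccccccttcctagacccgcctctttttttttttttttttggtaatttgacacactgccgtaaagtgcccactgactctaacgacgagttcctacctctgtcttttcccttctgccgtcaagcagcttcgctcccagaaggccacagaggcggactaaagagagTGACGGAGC
Psma2 (chr13:14612992-14613241, plus strand): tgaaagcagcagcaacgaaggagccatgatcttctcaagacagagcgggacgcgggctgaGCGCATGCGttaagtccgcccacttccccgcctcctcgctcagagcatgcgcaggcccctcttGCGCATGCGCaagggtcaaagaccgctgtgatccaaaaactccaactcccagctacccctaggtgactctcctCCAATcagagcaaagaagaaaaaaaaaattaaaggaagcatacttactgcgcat
Psmc6 (chr14:45329574-45329823, plus strand): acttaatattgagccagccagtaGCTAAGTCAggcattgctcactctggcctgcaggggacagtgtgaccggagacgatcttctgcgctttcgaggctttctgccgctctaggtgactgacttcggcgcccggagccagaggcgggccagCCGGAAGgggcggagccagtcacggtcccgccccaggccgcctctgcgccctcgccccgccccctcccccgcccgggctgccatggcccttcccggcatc
Psmd12 (chr11:107479278-107479527, plus strand): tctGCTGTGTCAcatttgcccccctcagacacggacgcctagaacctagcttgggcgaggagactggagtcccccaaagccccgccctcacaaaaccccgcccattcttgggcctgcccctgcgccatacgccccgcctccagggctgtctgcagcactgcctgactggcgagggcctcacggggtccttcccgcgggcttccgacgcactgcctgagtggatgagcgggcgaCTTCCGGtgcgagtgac
Psmd11 (chr11:80428365-80428614, plus strand): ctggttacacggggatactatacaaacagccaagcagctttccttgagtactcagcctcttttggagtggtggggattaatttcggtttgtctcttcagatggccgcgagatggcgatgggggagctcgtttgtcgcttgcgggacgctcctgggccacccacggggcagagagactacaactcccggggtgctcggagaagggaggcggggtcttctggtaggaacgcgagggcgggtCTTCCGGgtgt
Psme4 (chr11:30771525-30771774, plus strand): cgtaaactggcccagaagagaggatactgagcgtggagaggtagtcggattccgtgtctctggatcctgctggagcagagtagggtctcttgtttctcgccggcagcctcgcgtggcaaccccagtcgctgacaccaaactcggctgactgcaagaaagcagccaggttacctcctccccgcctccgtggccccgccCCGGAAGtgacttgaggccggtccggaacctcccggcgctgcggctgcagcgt
In Psmb5 and Psmb6 the capitals are the antioxidant response core, 47 and 9 bases before the start. Psma2 holds CCAAT 54 bases before the start and 3 matches of the nuclear respiratory factor 1 letters, which begin 190, 127 and 126 bases before it, the last 2 overlapping on opposite strands. In Psmc6 and Psmd12 the antioxidant response core lies 227 and 247 bases out and the ETS letters 100 and 17 bases. The ETS letters lie 11 bases before the start of Psmd11 and 53 bases before that of Psme4.

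**Figure D1:**
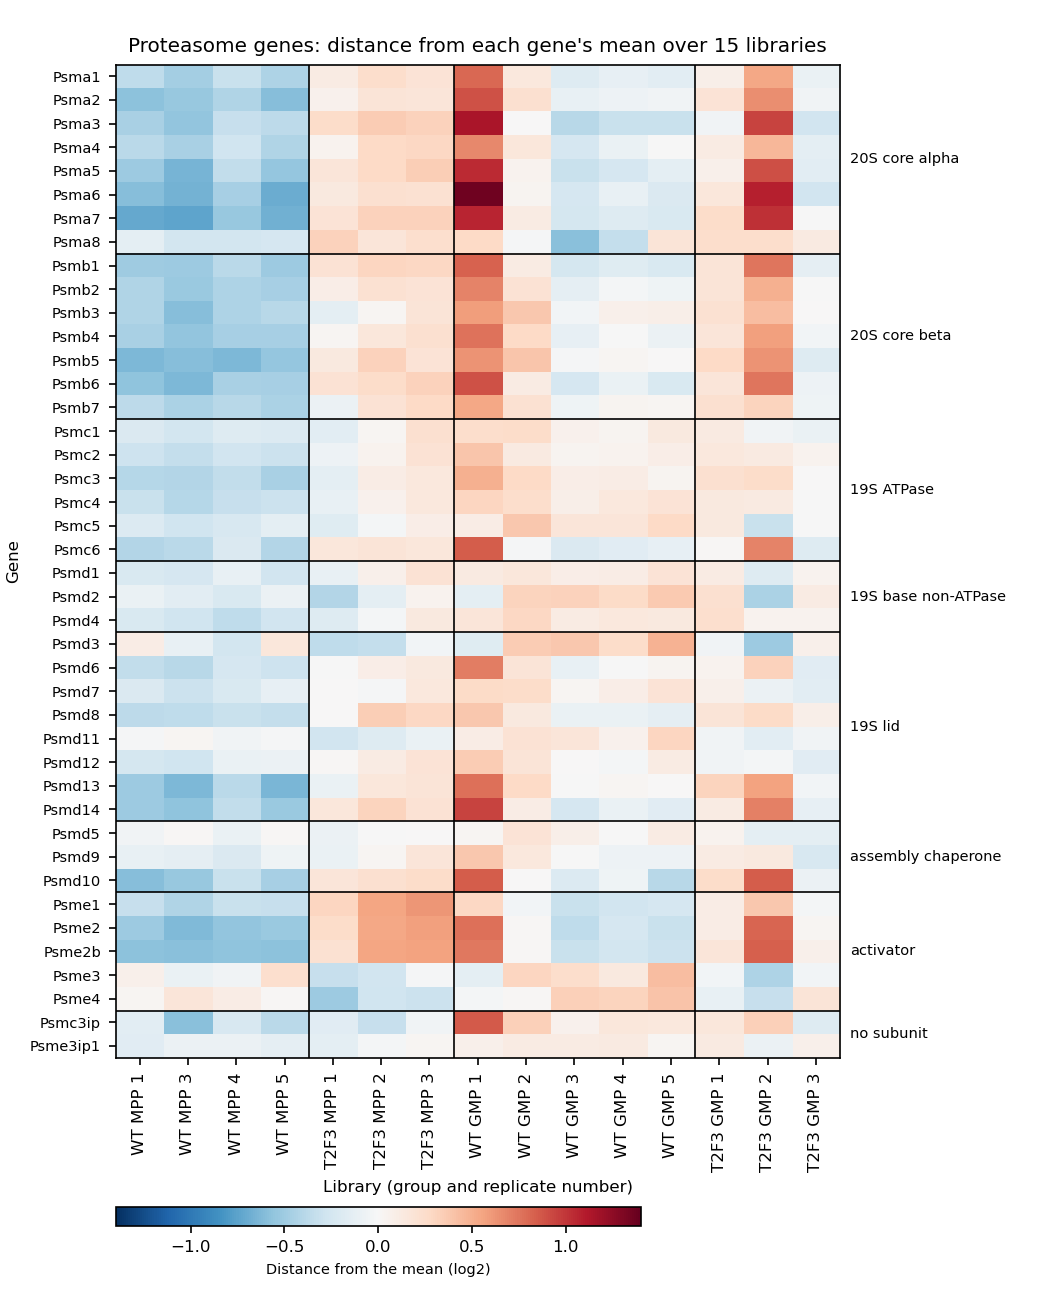
Distance of each proteasome gene (rows, ordered by role) from its own mean over the 15 libraries (columns), in log2 units by colour. WT MPP libraries lie below the mean in all core genes, and WT GMP 1 and T2F3 GMP 2 lie above their groups by a median of 0.89 and 0.58 in core genes and of 0.13 and 0.02 in 19S genes.

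The first comparison asks how the mutant genotype changed proteasome genes in MPP. Most of them were higher in T2F3: 27 rose and 1, Psme4, fell among the 42 tested, where 20.7% of all tested genes rose and 19.6% fell (40.3% in all). The median difference, T2F3 minus WT, was 0.50 over the 42 genes and -0.015 over all tested genes. Of all called genes 51.3% were higher, and 40.2% with libraries centred on their medians, while 36 of the 42 proteasome genes had positive differences in both cases. The median difference was 0.67 over the 20S core and 0.28 over the 19S particle, and Psme1, Psme2 and Psme2b lay between 0.83 and 1.02. In 31 of the 42 every T2F3 library lay above every WT library, and in 2 (Psmd11 and Psme4) below, where the groups lay apart in these directions in 28.1% and 26% of all tested genes.

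In the 20S core, 13 of the 15 tested genes rose. In all 15 the T2F3 libraries lay above the WT libraries. The differences ran from 0.46 for Psma8, the alpha subunit of the testis, to 0.94 for Psma7. The level of Psmb5, which carries the chymotrypsin-like site, was 8.79, 8.82, 8.78 and 8.88 in the WT libraries and 9.55, 9.74 and 9.61 in the T2F3 libraries. The groups lay far apart, with a difference of 0.82 ± 0.17 (SE), a 1.76-fold rise (limma adjusted p = 0.00173). Psmb6, with the caspase-like site, rose by 0.78 ± 0.22 (adjusted p = 0.0124), and Psmb7, with the trypsin-like site, by 0.54 ± 0.13 (adjusted p = 0.00546). Psmb2, a beta subunit without a site of its own, rose by 0.62 ± 0.16 (adjusted p = 0.00706).

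The alpha ring rose as well, in 6 of its 8 genes. Psma7 stood at 10.49, 10.47, 10.68 and 10.53 in WT and at 11.40, 11.54 and 11.53 in T2F3, the largest core difference (0.94 ± 0.27, adjusted p = 0.0122). Psma4 and Psma2 rose by 0.59 ± 0.17 (adjusted p = 0.0153) and 0.67 ± 0.20 (adjusted p = 0.0164). The 2 core genes that did not pass, Psma3 at 0.74 ± 0.31 and Psma6 at 0.80 ± 0.33 (adjusted p = 0.0652 and 0.06), had the largest SEs of the core; the spread behind an SE is shared over all 4 groups.

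In the 19S particle, 10 of 17 genes rose and none fell. Of the 6 ATPases, 3 rose. Psmc4 was read at 9.88, 9.80, 9.86 and 9.89 in WT and at 10.08, 10.25 and 10.34 in T2F3, groups that did not overlap, with a difference of 0.36 ± 0.08 (adjusted p = 0.00374). Psmc3 rose by 0.44 ± 0.11 (adjusted p = 0.00737) and Psmc2 by 0.36 ± 0.09 (adjusted p = 0.00838). Psmc6 at 0.51, Psmc1 at 0.24 and Psmc5 at 0.17 did not pass, though only for Psmc5 did the libraries of the groups overlap. Of the non-ATPase subunits of the base, Psmd4, a ubiquitin receptor, rose by 0.25 ± 0.09 (adjusted p = 0.0312) and Psmd1, a scaffold, by 0.26 ± 0.10 (adjusted p = 0.0371). Psmd2, the other scaffold, differed by -0.04 ± 0.16.

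The lid was divided. Of its 8 genes, 5 rose: Psmd14, the deubiquitinase, and Psmd13, Psmd8, Psmd12 and Psmd7. Psmd14 stood at 9.92, 9.86, 10.08 and 9.90 in WT and at 10.58, 10.74 and 10.62 in T2F3 (difference 0.70 ± 0.23, adjusted p = 0.0239). Psmd8 rose by 0.55 ± 0.12 (adjusted p = 0.00212) and Psmd13 by 0.62 ± 0.17 (adjusted p = 0.0115). Psmd3 and Psmd11 had negative differences, -0.22 ± 0.16 and -0.17 ± 0.08 (adjusted p = 0.285 and 0.0921), and the 3 T2F3 values of Psmd11 (9.22, 9.31 and 9.40) lay below the 4 WT values (9.47, 9.52, 9.44 and 9.48). Of the chaperones that help to assemble the base, Psmd10 (gankyrin) rose by 0.69 ± 0.23 (adjusted p = 0.0278), while Psmd9 and Psmd5 differed by 0.15 and -0.001 and did not pass.

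The activators went in both directions. Psme1 was read at 10.78, 10.68, 10.78 and 10.78 in WT and at 11.40, 11.64 and 11.71 in T2F3, and rose by 0.83 ± 0.14 (1.78-fold, adjusted p = 0.000291), the smallest adjusted p among the 42 genes. Its partner Psme2 was read at 9.50, 9.39, 9.46 and 9.50 in WT and at 10.27, 10.55 and 10.58 in T2F3, a rise of 1.00 ± 0.23 (2.01-fold, adjusted p = 0.00318). Psme2b, a near-identical copy of Psme2 whose reads may be shared with it, rose by 1.02 ± 0.22 (adjusted p = 0.00247). Psme4, the PA200 activator, fell from 9.98, 10.12, 10.05 and 9.96 in WT to 9.44, 9.67 and 9.64 in T2F3, by 0.44 ± 0.13 on the log2 scale (adjusted p = 0.0128). Psme3, the nuclear PA28 ring, differed by -0.24 ± 0.14 and did not pass (adjusted p = 0.169), and its groups overlapped.

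**Figure D2:**
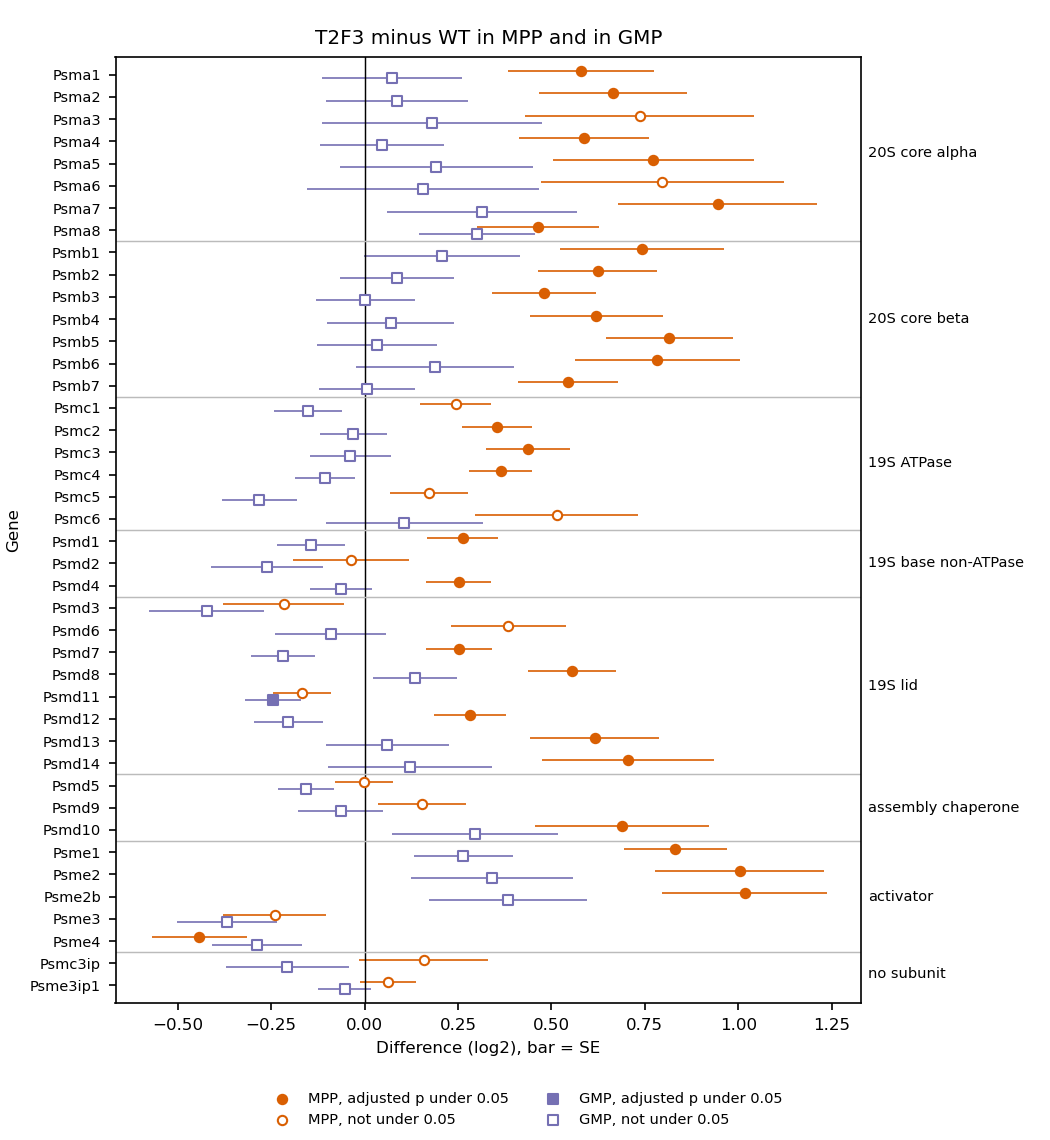
Differences T2F3 minus WT (log2, with SE) of each gene in MPP (circles) and GMP (squares), filled where the adjusted p was under 0.05. In MPP the core genes lie between 0.46 and 0.94, and in GMP between 0.00 and 0.31 with none filled.

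The inducible catalytic subunits stood beside PA28. Psmb9 was read at 9.76, 9.65, 9.66 and 9.61 in WT MPP and at 10.58, 10.96 and 10.90 in T2F3 MPP, a difference of 1.14 ± 0.15 (adjusted p = 2.62e-05). Psmb8 rose by 0.79 ± 0.12 (adjusted p = 9.63e-05) and Psmb10 by 0.50 ± 0.10 (adjusted p = 0.000957). Each inducible subunit and the constitutive subunit it replaces were therefore both higher in T2F3: Psmb9 beside Psmb6, Psmb8 beside Psmb5 and Psmb10 beside Psmb7. The difference between the members of a pair was not tested.

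Ribosomal protein genes and genes of the respiratory chain and ATP synthase moved with the proteasome genes in MPP. Over 77 ribosomal protein genes the median distance from the mean of all libraries was -0.46 ± 0.04 (SD, n = 4) in the WT group and 0.26 ± 0.01 (SD, n = 3) in the mutant group, and over 73 respiratory genes -0.52 ± 0.06 and 0.10 ± 0.08. Over the 20S core it was -0.47 ± 0.06 and 0.21 ± 0.06, and over the 19S particle -0.26 ± 0.03 and 0.03 ± 0.13. With the ribosomal protein level of each library as a covariate, 7 of the 42 genes were higher and none lower, with a median of 0.12, where 14.6% of all tested genes were higher and 13.8% lower in that fit: Psmb5 (0.36), Psmc4 (0.26), Psmd1 (0.32), Psmd8 (0.30), Psme1 (0.48), Psme2 (0.34) and Psme2b (0.37). Psme4 did not pass in that fit, nor without T2F3 MPP 1. The covariate ran from -0.508 to -0.418 in WT MPP and from 0.252 to 0.274 in T2F3 MPP, with little spread within a group. Its spread within groups, which sets its slope, lay mainly in GMP (from -0.293 to 0.874 in WT and from -0.132 to 0.827 in T2F3). In MPP that fit therefore cannot tell genotype from ribosomal protein level. Whether the proteasome, ribosomal protein and respiratory genes share a source of their variation was not tested. Without T2F3 MPP 3, 12 of the 42 genes passed, and without T2F3 MPP 2, 16, against 28 with all libraries (23.8%, 23.6% and 40.3% of all tested genes); Psmb5, Psma7, Psmc4, Psmd8, Psme1, Psme2 and Psme4 were among those that passed in both cases. In T2F3 MPP 1 the values of the 19S genes were lower than in the other two, with a median distance of -0.11.

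The second comparison is the same genotype difference in GMP. Of the 42 genes none rose and 1, Psmd11, fell, where 9.25% of all tested genes rose and 6.04% fell (15.3% in all). At an unadjusted p under 0.05, 8 were lower and none higher, against 15.7% and 14.2% of all tested genes. The groups lay apart in no gene upward and in 2 downward, Psmd11 and Psmd12, against 9.52% and 7.49% of all tested genes. The median difference was 0.02 over the 42 and -0.02 over all tested genes. Psmd11, a lid subunit, stood at 9.59, 9.69, 9.66, 9.54 and 9.79 in the 5 WT libraries and at 9.44, 9.34 and 9.44 in the 3 T2F3 libraries. The groups did not overlap, and the difference was -0.24 ± 0.07 (adjusted p = 0.0339). The call was lost without WT GMP 2, 3 or 5 and without any T2F3 GMP library, with adjusted p from 0.0576 to 0.139 there.

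The classes of subunits fell on different sides of 0 in GMP without passing the test. With all libraries, all 15 core genes had positive differences, from 0.002 for Psmb3 to 0.31 for Psma7, with a median of 0.09. Without T2F3 GMP 2, 13 of the 15 were negative, with a median of -0.11, and without it and WT GMP 1 together 13 were positive, with a median of 0.07. Of the 17 19S genes, 13 had negative differences, and the median was -0.11; without these libraries 16 (T2F3 GMP 2 left out) and 12 (both left out) were negative. None of the values of the catalytic subunits passed: Psmb5 differed by 0.03 ± 0.16, Psmb6 by 0.19 ± 0.21 and Psmb7 by 0.01 ± 0.13 (adjusted p = 0.913, 0.592 and 0.981). In the alpha ring Psma8 had the smallest p, at 0.30 ± 0.16 (adjusted p = 0.21), and in the base outside the ATPases Psmd2, at -0.26 ± 0.15 (adjusted p = 0.257). The widest 19S value was Psmd3, a lid subunit, at -0.42 ± 0.15 (adjusted p = 0.0756), followed by Psmc5 at -0.28 ± 0.10 (adjusted p = 0.0676). Psme1 and Psme2 differed by 0.26 ± 0.13 and 0.34 ± 0.22 (adjusted p = 0.195 and 0.312), Psme3 by -0.37 ± 0.13 (adjusted p = 0.0718) and Psme4 by -0.29 ± 0.12 (adjusted p = 0.119). Of the inducible subunits, Psmb9 rose by 0.60 ± 0.14 (adjusted p = 0.0087), though T2F3 GMP 3 (10.26) lay below WT GMP 1 (10.30). Psmb8 and Psmb10 differed by 0.27 and 0.02 and did not pass. The groups of Psmb8 lay apart, as in 9.52% of all tested genes upward. Its highest WT GMP value was 11.48 and its lowest T2F3 GMP value 11.52.

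**Figure D3:**
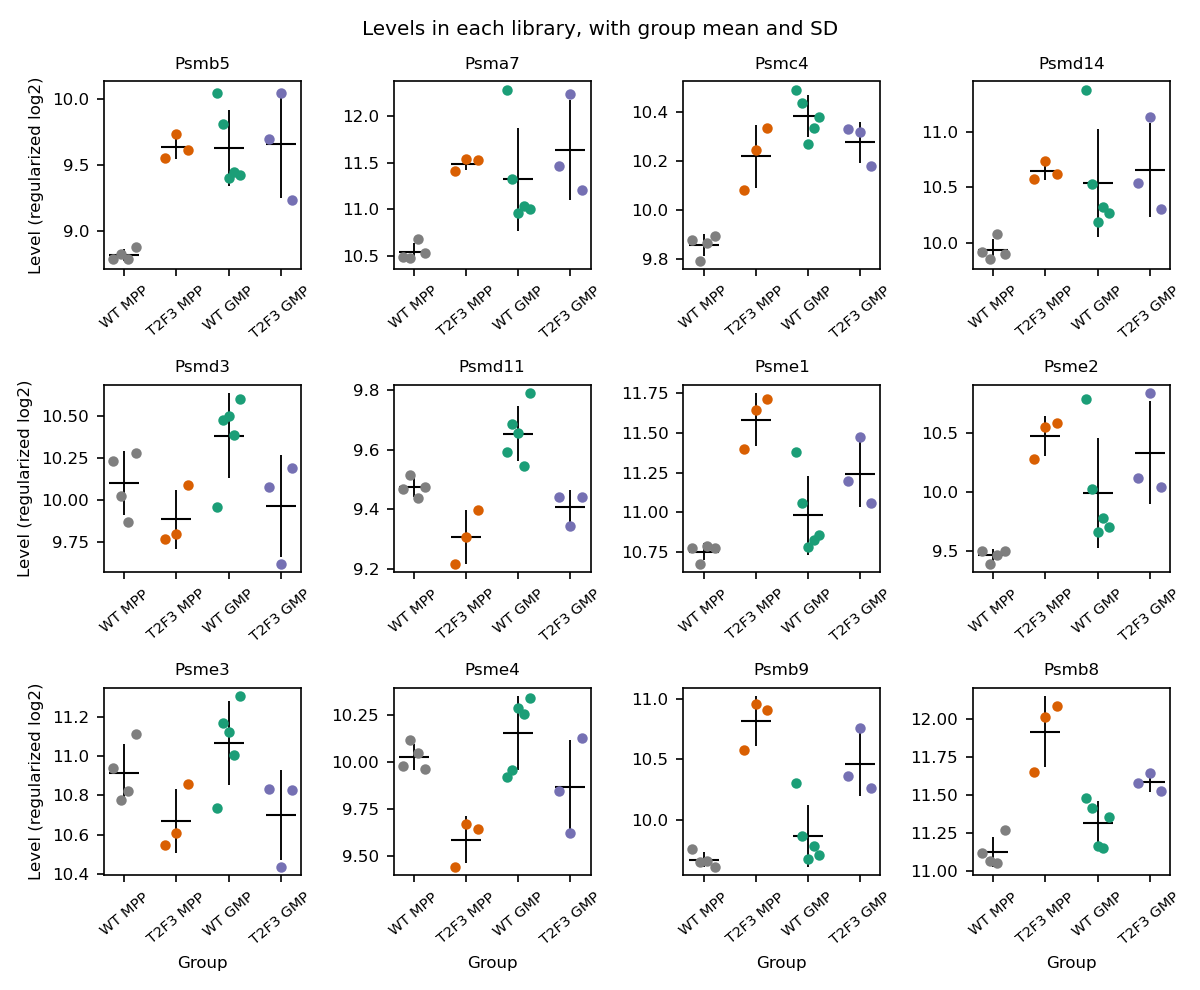
Levels (regularized log2) of 12 genes in each library by group, with the group mean and SD as a bar; each panel has its own axis, which does not start at 0. In Psma7, Psmd14 and Psme2 1 point of each GMP group (WT GMP 1 and T2F3 GMP 2) lies well above the rest of its group, and in Psmd3 and Psme3 the same libraries are the lowest.

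The spread in that comparison was wide in a pair of libraries. WT GMP 1 lay above the mean of the other WT GMP libraries in all 15 core genes, by a median of 0.89, and T2F3 GMP 2 above its group in all 15, by 0.58. Psma6 shows it most: 12.38 in WT GMP 1 against 11.05, 10.79, 10.91 and 10.82 in the other WT libraries, and 12.11 in T2F3 GMP 2 against 11.18 and 10.75. The 19S genes followed less, with medians of 0.13 and 0.02. By class, the medians in these libraries were 0.356 and 0.11 in the lid, 0.226 and 0.044 in the ATPases and -0.009 and -0.265 in the other base subunits. Psmc6, Psmd14, Psmd13 and Psmd6 followed the core, while Psmd2 was lowest in WT GMP 1 (10.78 against 11.23, 11.24, 11.19 and 11.28) and in T2F3 GMP 2 (10.48 against 11.14 and 11.04). Psmd3, Psme3 and Psme4 were also lowest in both of these libraries within their groups. The median deviation of ribosomal protein genes in the same libraries was 1.09 and 0.83, and that of respiratory genes 0.92 and 0.67. T2F3 GMP 3 lay below its group in all 15 core genes, with a median deviation of -0.47.

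With both libraries left out, the GMP comparison still gave few calls: 1 gene rose (Psme2b, 0.33) and 1 fell (Psmd3, by 0.36), where 17.9% of all tested genes passed. Without WT GMP 1 alone, 13 of the 42 passed, 8 higher and 5 lower, with T2F3 GMP 2 still in. This is the share of all tested genes that passed in that fit, 31.0%. In MPP, where neither library enters the means, 34 of the 42 passed without them, 32 higher and 2 lower (Psme3 and Psme4), with smaller SEs, against 55.2% of all tested genes; all 15 core genes and 13 of the 17 19S genes were then higher. With the ribosomal protein covariate in GMP, 7 genes were lower and none higher, where 11% of all tested genes were lower and 12.1% higher in that fit. Of the 7, 5 were lid subunits (Psmd3, Psmd6, Psmd7, Psmd11 and Psmd12), beside Psma6 and Psmc3ip. Without the covariate the mean of Psma6 was higher in T2F3 (11.347) than in WT (11.19), so its sign turned.

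**Figure D4:**
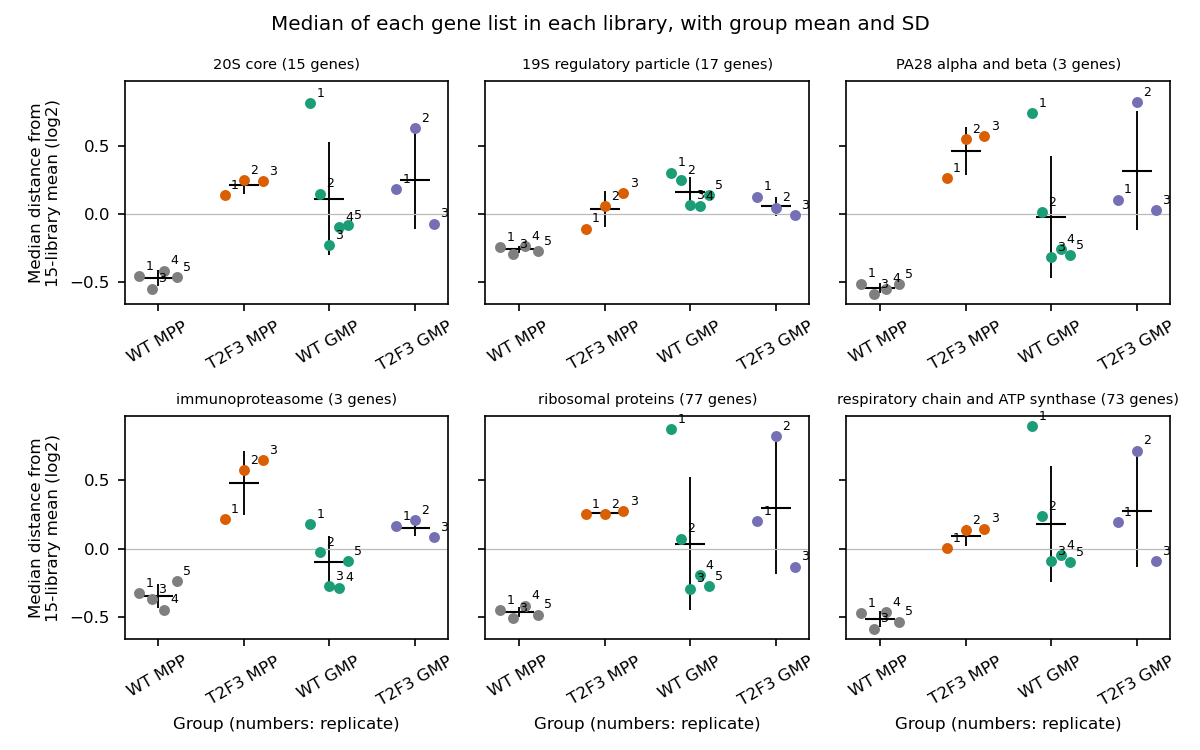
Median distance of each gene list from the mean of all libraries (log2), per library by group, numbered by replicate, with the group mean and SD. In GMP, replicate 1 of WT and replicate 2 of T2F3 lie above the others in the 20S core, PA28, ribosomal protein and respiratory panels, and the 19S panel has a narrower spread.

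The third comparison sets the genotype effects against each other, GMP minus MPP. The difference of effects was negative in 41 of the 42 genes, with Psme4 the exception (0.15). In size, without regard to sign, the effect was smaller in GMP in 35 of the 42, among them all 15 core genes. The median difference of effects was -0.48, against -0.01 over all tested genes. The effects share no libraries. Ribosomal protein genes had median distances from the mean of all libraries of -0.465 and 0.26 in WT and T2F3 MPP. In WT and T2F3 GMP these were 0.037 and 0.298. Respiratory genes had -0.515 and 0.095 in MPP and 0.179 and 0.275 in GMP. The smaller genotype difference in GMP was thus not particular to proteasome genes. In these lists it was not tested. Of the 42, 1 passed: Psmc4, at -0.47 ± 0.12 (adjusted p = 0.0481), where 2.26% of all tested genes passed, 1.38% higher and 0.882% lower. Psmd7 (-0.47 ± 0.12, adjusted p = 0.0571) and Psmd12 (-0.49 ± 0.13, adjusted p = 0.0661) came next, and Psmb5 had the widest value, -0.78 ± 0.23 (adjusted p = 0.092). The other catalytic subunits, Psmb6 and Psmb7, had -0.60 ± 0.31 and -0.54 ± 0.18 (adjusted p = 0.299 and 0.133), Psme1 had -0.57 ± 0.19 (adjusted p = 0.127) and Psmd1 -0.41 ± 0.13 (adjusted p = 0.115). At an unadjusted p under 0.05, 20 of the 42 were lower and none higher, against 9.4% and 9.76% of all tested genes. Without WT GMP 1 and T2F3 GMP 2 together, 25 passed, all lower, against 6.63% of all tested genes. Among them were 14 of the 15 core genes, 8 of the 17 19S genes and Psme1, Psme2 and Psme2b. These 2 libraries had been picked by their values in core genes among others, so that count is no separate support. T2F3 GMP then held replicates 1 and 3 only. The call of Psmc4 held without T2F3 MPP 1, WT GMP 1, WT GMP 3 or T2F3 GMP 1 and was lost without any other single library, with adjusted p from 0.0587 to 0.167.

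The last pair of comparisons follows the step from MPP to GMP within each genotype. In WT, 33 of the 42 genes rose and none fell, where 25.4% of all tested genes rose and 23.2% fell (48.6% in all). The median difference was 0.48, against 0.03 over all tested genes. In 32 of the 42 every GMP library lay above every MPP library and in none below, against 22.6% and 20.4% of all tested genes. In T2F3 no gene passed, where 22.2% of all tested genes did. At an unadjusted p under 0.05 only Psme1 was lower in T2F3 GMP, at -0.34 ± 0.15, and none was higher, against 16.7% and 15.5% of all tested genes. The median difference in T2F3 was 0.02. The WT MPP libraries enter the first comparison as well as the WT step, so these values are not independent of the rise in T2F3 MPP.

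In the WT step the core and the 19S particle rose together: 13 of 15 core genes (median 0.60), 5 of 6 ATPases (0.43), 3 of 3 other base subunits (0.36) and 7 of 8 lid subunits (0.38). The step was not particular to them. Ribosomal protein genes had median distances from the mean of all libraries of -0.465 in WT MPP and 0.037 in WT GMP. Respiratory genes had -0.515 and 0.179. Of the base chaperones Psmd10 rose, by 0.52 ± 0.20 (adjusted p = 0.0446). Psmc4 rose from 9.88, 9.80, 9.86 and 9.89 in WT MPP to 10.49, 10.44, 10.27, 10.34 and 10.38 in WT GMP, groups that lay apart, by 0.53 ± 0.07 (adjusted p = 2.19e-05). Psmc3 rose by 0.60 ± 0.10 (adjusted p = 0.000111), Psmd4 by 0.45 ± 0.08 (adjusted p = 0.000144) and Psmd13 by 0.75 ± 0.15 (adjusted p = 0.000622). In the core, Psmb5 rose from between 8.78 and 8.88 in WT MPP to 10.04, 9.81, 9.40, 9.45 and 9.42 in WT GMP, by 0.81 ± 0.15 (adjusted p = 0.000296), Psmb3 by 0.68 ± 0.12 (adjusted p = 0.00026), Psmb7 by 0.56 ± 0.12 (adjusted p = 0.000873) and Psmb6 by 0.62 ± 0.20 (adjusted p = 0.0152). The alpha subunits Psma2 and Psma7 rose by 0.71 ± 0.18 and 0.78 ± 0.23 (adjusted p = 0.00326 and 0.0121). Psma3, Psma8, Psmc6 and Psmd3 were the core and 19S genes that did not pass. Of the activators, Psme2 rose by 0.53 ± 0.20 (adjusted p = 0.0381) and its copy Psme2b by 0.55 ± 0.19 (adjusted p = 0.0276), while Psme1 (0.23 ± 0.12, adjusted p = 0.131), Psme3 (0.16) and Psme4 (0.13) did not pass. With the ribosomal protein covariate, 27 genes were higher and 1, Psma3, lower in the WT step, with a median of 0.23, where 31.3% and 26.7% of all tested genes were. In that fit 8 of the 15 core genes and 15 of the 17 19S genes were higher. Without the covariate the mean of Psma3 was higher in WT GMP (10.25) than in WT MPP (9.797), so its sign turned. Both genes that share only the name rose with all libraries and no covariate, Psmc3ip by 0.65 ± 0.15 and Psme3ip1 by 0.20 ± 0.07.

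**Figure D5:**
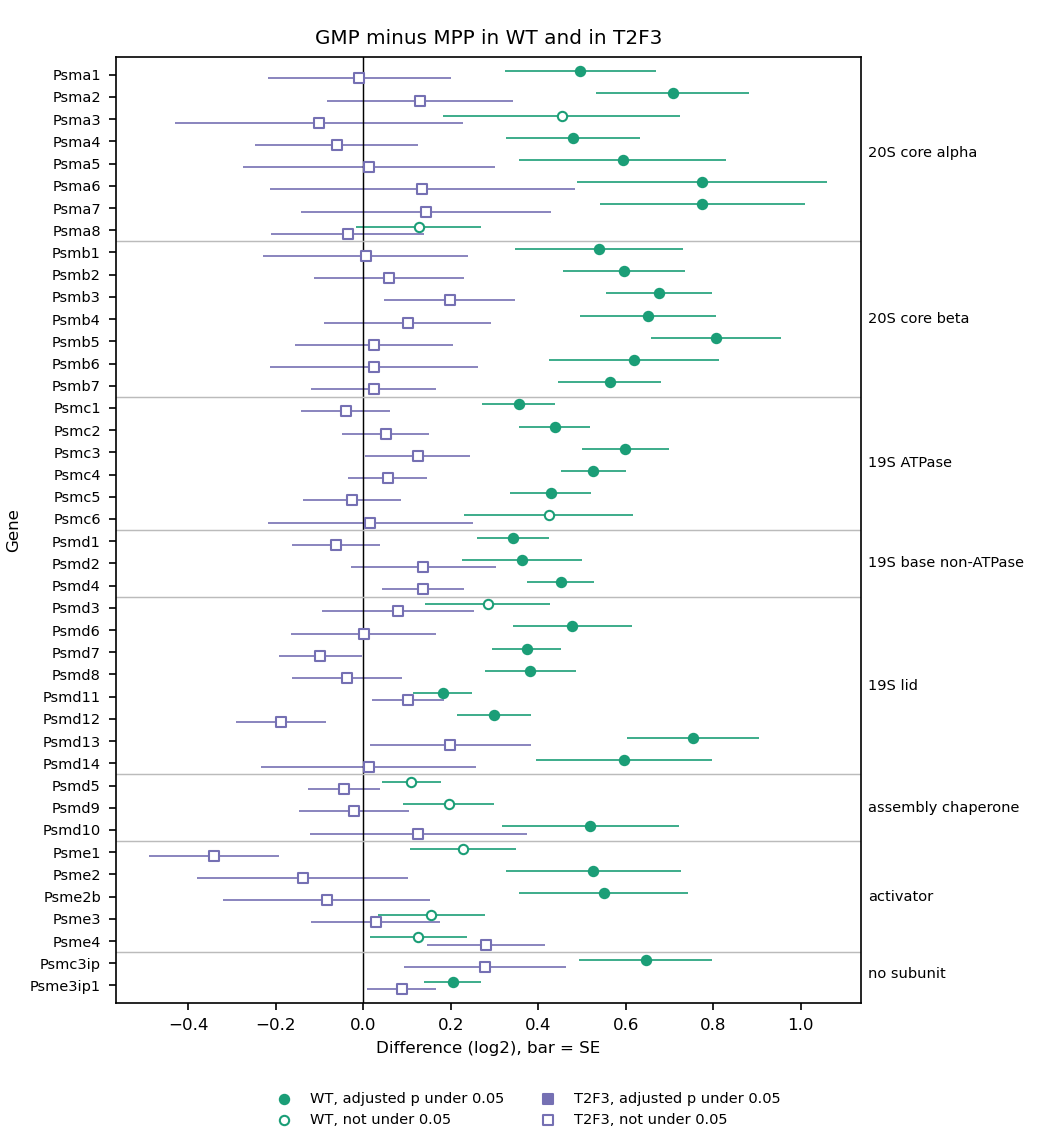
Differences GMP minus MPP (log2, with SE) of each gene in WT (circles) and T2F3 (squares), filled where the adjusted p was under 0.05. In WT 33 genes lie above 0 and are filled, and in T2F3 none is filled and the values lie between -0.34 and 0.28.

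In T2F3 the values of the catalytic core subunits hardly differed between the populations. Psmb5 was read at 9.55, 9.74 and 9.61 in T2F3 MPP and at 9.69, 10.05 and 9.23 in T2F3 GMP, groups that overlapped, with a difference of 0.02 ± 0.18 (adjusted p = 0.953). Psmb6 and Psmb7 differed by 0.02 ± 0.24 and 0.02 ± 0.14 (adjusted p = 0.964 and 0.94). The sign of these 3 differences turned with quantile normalization and without T2F3 GMP 2. Of the other classes, Psmd4 at 0.14 ± 0.09 and Psmd12 at -0.19 ± 0.10 had the smallest p in the base and the lid (adjusted p = 0.354 and 0.227). In the median distance of the core from the mean of all libraries, the 3 T2F3 MPP libraries ran from 0.14 to 0.25 and the 3 T2F3 GMP libraries from -0.07 to 0.63. Without T2F3 GMP 2 and WT GMP 1, 7 of the 42 passed in T2F3, a smaller share than the 31.6% of all tested genes: Psma3, Psma5, Psme1, Psme2 and Psme2b were lower in GMP, by 0.47, 0.30, 0.46, 0.39 and 0.33, and Psmd2 and Psme4 were higher, by 0.34 and 0.40. In WT the same omission left 36 genes that rose, with a median of 0.35, against 31.9% of all tested genes. Quantile normalization left 18, against 23.4% of all tested genes.

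Genes around the proteasome were read from lists of assembly factors, bound factors, the p97 segregase, and regulators of Nfe2l1 and Nfe2l2. Of 5 assembly factors of the core outside the name rule, 3 rose in T2F3 MPP and none fell: Pomp, the maturation factor of the beta ring, by 0.88 ± 0.20 (adjusted p = 0.0038), Psmg3 by 0.55 ± 0.14 (adjusted p = 0.00817) and Psmg4. The median of the 5 was 0.55, and 20.7% of all tested genes rose and 19.6% fell. In the WT step Psmg3 rose by 0.63 ± 0.13 and Psmg1 by 0.48 ± 0.12 (limma adjusted p = 0.000702 and 0.00299). Pomp was the third of 3 that rose, where 25.4% of all tested genes did. No assembly factor passed in GMP between the genotypes or in the T2F3 step, where 15.3% and 22.2% of all tested genes did.

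Of 13 other subunits and bound factors, 1 rose and 1 fell in T2F3 MPP, against 20.7% and 19.6% of all tested genes. The median was -0.17. Sem1, the small lid subunit whose name the rule does not take, rose by 0.52 ± 0.14 (adjusted p = 0.0107), and the shuttle factor Ubqln4 fell by 0.39 ± 0.13 (adjusted p = 0.0255). Sem1 also rose in the WT step by 1.13 ± 0.13 (adjusted p = 1.87e-06), from 9.84, 9.77, 9.86 and 9.74 to 11.36, 10.94, 10.76, 10.86 and 10.72, and in the T2F3 step by 0.66 ± 0.15 (adjusted p = 0.00439), in which no gene of the name rule passed. Uchl5, a deubiquitinase bound to the 19S base, fell in T2F3 GMP by 0.39 ± 0.10 (adjusted p = 0.0127), as did Ubqln4 by 0.41 ± 0.12 (adjusted p = 0.0354).

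Of 7 genes of p97 and its cofactors, only the adaptor Ubxn1 passed in T2F3 MPP (0.39 ± 0.08, limma adjusted p = 0.0024), where 40.3% of all tested genes passed. Vcp, which encodes p97, differed by -0.25 ± 0.17.

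Of 7 regulators of Nfe2l1 and Nfe2l2, themselves included, 1 rose and 2 fell in T2F3 MPP, a share close to the 40.3% of all tested genes that passed. Nfe2l1 itself was read at 10.17, 10.17, 10.09 and 10.35 in WT MPP and at 10.02, 9.92 and 10.07 in T2F3 MPP, with a difference of -0.19 ± 0.15 that did not pass (adjusted p = 0.325). Ngly1, the deglycosylase that processes Nfe2l1 protein, rose by 0.55 ± 0.10 (adjusted p = 0.000468), from 8.44, 8.49, 8.38 and 8.11 to 8.86, 8.93 and 8.92. Nfe2l2 fell by 0.29 ± 0.10 (adjusted p = 0.0273), and its partner Mafg fell by 0.26 ± 0.10 (adjusted p = 0.0493). In the T2F3 step Nfe2l2 and Mafg rose, by 0.49 ± 0.10 and 0.52 ± 0.11 (adjusted p = 0.00229 and 0.00187), and Ngly1 fell by 0.41 ± 0.10 (adjusted p = 0.00716). The mRNA level does not give the activity of these factors, and that of Nfe2l1 also depends on the processing of its protein.

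The length of the genes was set beside the differences as a description. Over the 42 genes, the rank correlation of genomic span with the MPP difference was -0.29, where it was -0.26 over 12114 tested genes with a known span, and with the WT step it was -0.32 and -0.23. In both sets shorter genes tended to have higher differences, and all points share the same libraries.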

How the data were processed

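The deposited table gave regularized log2 values per gene and library. Per the submitters' processing notes, STAR, Bowtie, HOMER, DESeq2 and the mm9 build were used, with no roles or versions given, and per the labels' protocols libraries came from a stranded mRNA kit. Entrez gene IDs were matched to symbols for 24345 of 24424 genes. Of the 56 samples of the series, 41 were not used here. From the log2 values, limma 3.58.1 (R 4.3.3) was fitted to all 15 libraries in 4 groups, with trend and robust variances, for 12133 genes with a mean of at least 4. P-values were adjusted by Benjamini-Hochberg over these genes at a threshold of 0.05. The fit was tried on simulated data with independent errors. These lack the deviations that many genes of a library shared here, so the calls were not checked under them. Python 3.11.15 made the tables (pandas 2.3.3 with NumPy 2.4.6) and the figures (Matplotlib 3.10.9).

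In each comparison and class, at most 3 genes past the threshold with the smallest p were given with statistics, or the 1 with the smallest p where none passed. Psme1, Psme2, Psmb5, Psmb6 and Psmb7 were always named, and other genes were named after their values were seen. Members and lists were chosen with earlier results of these data known. The alternatives were other filters, a pseudocount of 8, centring, quantile normalization, array weights, fewer groups, blocks, omitted libraries and a ribosomal protein covariate. A list of related genes that was also tested is not reported here.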

Additional observations from a re-analysis of the deposited data

Results flagged for a closer look

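A single library stood far from the rest of its group in 13 of the 84 gene and group pairs examined in WT MPP and WT GMP, where chance gives about 1 in 20 for independent values. The genes share their libraries, so the pairs are not independent. In WT GMP replicate 1, 7 genes were highest by such a gap: Psma3 at 11.37, Psma5 at 10.96, Psma6 at 12.38, Psma7 at 12.28, Psmc2 at 10.39, Psmc6 at 11.08 and Psmd14 at 11.37 on the log2 scale. In the same library Psmd2 was lowest, at 10.78. In WT MPP the gaps were small in size and lay in different libraries: Psma8 was highest in replicate 1 (6.15), Psmb1 and Psmc6 in replicate 4 (10.41 and 10.03), and Psmb4 and Psme1 were lowest in replicate 3 (10.21 and 10.68).

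The ATPase Psmc4 differed in its genotype effect between the populations, by -0.47 (limma adjusted p = 0.0481 for the difference of effects). It was 1 of the 42 genes, where 2.26% of all tested genes passed. The call was lost with no filter, a minimum mean of 6, centring, quantile normalization or no trend and robust variances. It was also lost with either replicate block and without most single libraries.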

How the results depend on the processing

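In MPP, 28 of the 42 genes were called between the genotypes, and between 12 and 33 with 1 library left out. The count was 7 with the ribosomal protein covariate, which hardly varied within the MPP groups. Of all tested genes 40.3% were called in the main fit, 23.6% to 49.4% with 1 library left out and 28.4% with the covariate. In GMP 15.3% of all tested genes were called in the main fit. The count of 1 became 0 with no filter and with only the groups compared, against 9.84% and 9.73% of all genes tested. It became 12 with array weights, 2 without WT GMP 1 and T2F3 GMP 2 and 7 with the covariate, against 33.8%, 17.9% and 23.2%. With 1 library left out the count was 0 to 13, against 9.68% to 31.0%. For the difference of effects the count of 1 became 0 with no filter, a minimum mean of 6, centring, quantile normalization or no trend and robust variances. In those fits 1.36% to 2.86% of all genes tested were called. The count became 25 with array weights, against 12.3% of all tested genes. Without both libraries, picked by their core gene values among others, the count was also 25, against 9.92%. It was 7 with the covariate and 0 to 5 with 1 library left out, against 7.96% and 0.651% to 4.83%. A fit of only the groups compared was not run because it uses all 4. In the WT step the count of 33 became 18 with quantile normalization, 28 with the covariate (27 higher and Psma3 lower, the median falling from 0.48 to 0.23) and 23 to 34 with 1 library left out. Of all tested genes 48.6% were called in the main fit and 48.3% with quantile normalization. The share was 58.0% with the covariate and 42.2% to 51.6% with 1 library left out. In the T2F3 step the count of 0 became 1 with quantile normalization, 5 with array weights, 7 without both libraries, 3 with the covariate and 0 to 2 with 1 library left out. Of all tested genes 22.2% were called in the main fit. The shares in the other fits were 22.7%, 36.2%, 31.6%, 34.8% and 17.1% to 26.2%, in that order. The cause of these changes was not tested.

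Libraries of a genotype and number in both populations were correlated in their deviations with r from 0.055 to 0.464, above 0.1 in 5 of 7 pairs. Libraries of the same number and population but different genotype, which cannot be 1 animal, had r from -0.326 to 0.517. The labels do not say whether libraries of the same genotype and number come from 1 animal, so whether the numbers pair the libraries is not settled. With the replicate number as a block, 8 genes were called in MPP (all higher: Psmb2, Psmb5, Psmb7, Psmc4, Psmd8, Psme1, Psme2 and Psme2b, with Psme4 at a limma adjusted p of 0.0531). The count was 0 in GMP, 0 for the difference of effects, 27 in the WT step and 0 in the T2F3 step. Of all tested genes 22.5%, 10.7%, 1.99%, 46.3% and 21.9% were called in these comparisons, in that order. With genotype and number as 1 animal in the block, the difference of effects, the WT step and the T2F3 step had counts of 0, 28 and 0. The shares of all tested genes were 1.68%, 44.1% and 22.2%. The comparisons within a population could not be fitted with that block. The block turned the GMP difference of Psmb5 to -0.048 and of Psmb7 to -0.046.

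In the 72 pairs of gene and comparison followed over the settings, only uncalled values turned sign, and none was called after the turn. Outside these pairs, the covariate turned Psma6 in GMP and Psma3 in the WT step from uncalled positive differences to called negative ones. With 1 library left out, the GMP difference ran from -0.031 to 0.403 for Psmb1, from -0.16 to 0.245 for Psmb5, from -0.044 to 0.388 for Psmb6 and from -0.072 to 0.115 for Psmb7. The T2F3 step then ran from -0.171 to 0.235 for Psmb5, from -0.208 to 0.201 for Psmb6, from -0.085 to 0.133 for Psmb7, from -0.064 to 0.287 for Psma2 and from -0.39 to 0.006 for Psme2. Without both libraries, the GMP difference of Psmb5 became -0.056, and the T2F3 step -0.171 for Psmb5, -0.208 for Psmb6, -0.055 for Psmb7 and -0.064 for Psma2. The covariate gave -0.029, -0.132, -0.053 and -0.11 for Psmb1, Psmb5, Psmb6 and Psmb7 in GMP, -0.013 for Psme1 in the WT step, and -0.00024 and -0.011 for Psmb5 and Psmb6 in the T2F3 step. In that step, quantile normalization gave -0.055 for Psmb5, -0.091 for Psmb6, -0.08 for Psmb7 and -0.001 for Psmc3, and array weights gave -0.032, -0.107 and -0.037 for the first 3 and 0.012 for Psmd5. Of the other values of single genes, 1682 kept sign and side of the threshold, 132 lost a call and 47 gained one. The values hold no counts, so no limit from sequencing depth could be given.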
